A study of Mus musculus with 6 samples.

Results

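Dense clusters of accessible intervals are stretches of chromatin in which many open sites lie side by side away from gene ends. A member was an interval on chromosomes 1 to 19 with at least 5 other intervals whose midpoints lay within 25 kb of its own midpoint, and with its midpoint over 1 kb from any end of a RefSeq protein-coding gene. By that rule 3052 of 52223 consensus intervals were members, and 4118 met the neighbour count when gene ends were allowed. Members whose midpoints lay within 25 kb of the one before were joined, which gave 901 clusters. The rule used positions and no counts. Those positions are the accessible intervals of this same series, so the rule is not independent of accessibility. Median accessibility was 4.94 CPM for intervals beyond 1 kb of a gene end with 0 to 3 neighbours, and 15.4 CPM for those with at least 8.

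The data are ATAC-seq, which maps open chromatin by where the enzyme Tn5 can insert sequencing adapters, of mouse neural progenitors differentiated from embryonic stem cells. Both groups, 3 libraries each, went through the same culture, with 5 µM CHIR99021 (a GSK3 inhibitor) on day 2, 100 nM retinoic acid plus 10 nM SAG (the Smoothened agonist) from day 3, and SAG at 10 nM without retinoic acid from day 5. On day 5 the mScarlet group, given as the Control genotype, received a lentivirus with the mScarlet3 fluorescent protein, and the Nr6a1OE group a lentivirus with Nr6a1-2A-mScarlet3. Fluorescent cells were sorted on day 9, and 50000 of them entered each library. Neither the promoter of the virus nor the stem cell line is given in the sources used here, and fluorescence does not report how much Nr6a1 each cell made.

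Nr6a1 (germ cell nuclear factor) belongs to the orphan nuclear receptors. It binds DNA at a direct repeat of the hexamer AGGTCA without a spacer and represses pluripotency genes during differentiation. Clustered open sites are typical of loci that many regulatory elements share, such as the Hox clusters, which set position along the body axis, and the genes of transcription factors that pattern the neural tube. Other clustered sites are arrays of small genes, such as tRNA genes, in which every copy carries its own promoter.

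The sequences shown first are the microRNAs whose genes lie in the clusters the results turn on, taken from RefSeq for GRCm38.p6, which shares its coordinates with mm10. Each is the mature RNA read 5′ to 3′, with its seed (bases 2 to 8) in capitals. The microRNA miR-9 is an abundant neural microRNA that acts on progenitor genes. Its gene Mir9-2 lies in the cluster that closed with the lowest adjusted p.
miR-9-5p: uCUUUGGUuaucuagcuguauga
miR-9-3p: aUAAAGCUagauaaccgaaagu
The Hox clusters hold 2 seed families, each found in more than 1 of HoxA, HoxB, HoxC and HoxD. The microRNAs miR-10a-5p (HoxB) and miR-10b-5p (HoxD) share the seed ACCCUGU. The seed AGGUAGU is shared by miR-196a-5p (HoxB and HoxC) and miR-196b-5p (HoxA).
miR-10a-5p: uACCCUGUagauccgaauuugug
miR-10b-5p: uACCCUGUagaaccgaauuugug
miR-196a-5p: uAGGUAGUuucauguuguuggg
miR-196b-5p: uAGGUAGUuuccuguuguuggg
Another pair, miR-132-3p and miR-212-3p, shares the seed AACAGUC and comes from the cluster beside Hic1, which was called opened.
miR-132-3p: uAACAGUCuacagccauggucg
miR-212-3p: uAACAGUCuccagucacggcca
In all, 50 of 919 microRNA hairpins on chromosomes 1 to 19 lay inside a cluster.

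The promoters printed next are the 3 that lie inside members of the Mir9-2 cluster, with 250 bases before the start in lower case and 50 bases after it in capitals. The first and last belong to C130071C03Rik, the long noncoding RNA that runs across Mir9-2. Its outer start, chr13:83721131-83721430 on the plus strand, lies inside a member that was not called. That same member holds the start of the noncoding RNA Gm52046, chr13:83721606-83721905 on the minus strand. The inner C130071C03Rik start, chr13:83732243-83732542 on the plus strand, lies inside a member that closed.
C130071C03Rik, outer start: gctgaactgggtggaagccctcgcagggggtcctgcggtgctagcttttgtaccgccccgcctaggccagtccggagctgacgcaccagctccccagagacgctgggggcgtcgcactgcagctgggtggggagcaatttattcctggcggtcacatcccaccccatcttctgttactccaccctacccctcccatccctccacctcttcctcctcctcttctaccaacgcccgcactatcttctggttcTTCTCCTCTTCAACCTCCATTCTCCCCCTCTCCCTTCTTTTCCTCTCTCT
Gm52046: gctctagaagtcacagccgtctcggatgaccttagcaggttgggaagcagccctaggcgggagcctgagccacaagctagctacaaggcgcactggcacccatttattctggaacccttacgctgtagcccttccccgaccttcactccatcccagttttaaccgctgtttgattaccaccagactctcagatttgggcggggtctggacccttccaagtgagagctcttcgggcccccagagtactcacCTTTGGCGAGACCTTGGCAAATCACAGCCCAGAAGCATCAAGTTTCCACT
C130071C03Rik, inner start: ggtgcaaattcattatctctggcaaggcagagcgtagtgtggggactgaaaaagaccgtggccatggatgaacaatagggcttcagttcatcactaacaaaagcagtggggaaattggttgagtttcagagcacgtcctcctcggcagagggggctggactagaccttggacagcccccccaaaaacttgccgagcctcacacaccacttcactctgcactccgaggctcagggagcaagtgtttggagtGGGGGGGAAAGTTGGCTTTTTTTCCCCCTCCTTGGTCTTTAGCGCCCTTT
The Gm52046 window holds AGGTCA 1 time, counting either strand, and both C130071C03Rik windows hold it 0 times. Among all 32851 promoter windows of that length, 5340 (16.3%) hold AGGTCA on either strand and 2 hold the direct repeat AGGTCAAGGTCA, whose letters include the hexamer. Among the 279 windows that lie inside members, 30 (10.8%) hold the hexamer and 0 hold the direct repeat.

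Libraries held 6857763 to 8030029 fragments in intervals. All 8 neural progenitor markers checked (Sox1, Sox2, Sox3, Pax6, Nes, Olig2, Nkx6-1 and Hes5) had an accessible interval at a gene end, at 27.3 to 134 CPM in mScarlet, where CPM are counts scaled to the fragments in intervals of each library after trimmed-mean (TMM) adjustment. Of the pluripotency markers Pou5f1, Nanog and Zfp42 had none and Esrrb had one at 3.02 CPM. Of the mesoderm, endoderm, neural crest, endothelium and blood markers Meox1, Msgn1, Gata4, Tfap2a, Cdh5 and Pecam1 had none, while Sox10, Sox17, Tbxt, Foxd3, Tbx6, Kdr, Tal1 and Gata6 had one each, at 8.92 to 71.1 CPM in mScarlet. An open gene end is not expression, so these levels do not show which cells were present. The median change of all intervals was 0.06 on the log2 scale on chromosome 11 and -0.03 on chromosome 6.

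Clusters were small in most cases. Of the 901, 277 held a single member whose neighbours lay at gene ends or were not dense themselves, 184 held 2, 235 held at least 5 and 39 held at least 10. The median held 2 members over 15.2 kb, and the largest held 25 over 173.2 kb. Protein-coding genes overlapped 658 clusters, and the other 243 are named here by the gene with the nearest end. Neighbouring members of a cluster lay a median of 5.49 kb apart, and 4 of 2151 neighbouring pairs were separated by under 300 bp, so a fragment rarely reached both.

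Members were more accessible than other sites of the same kind. Their median was 8.91 CPM, against 5.08 CPM for the other 35836 intervals beyond 1 kb of a gene end on chromosomes 1 to 19, and per length 10.1 against 6.0 RPKM (CPM per kilobase of interval). Interval lengths were close, with medians of 951.5 and 909 bp. Members lay nearer to gene ends, at a median of 9.60 kb against 26.8 kb. A tRNA gene overlapped 57 members (1.87%) and 72 of the other intervals (0.201%). A long noncoding RNA overlapped 18.2% of members and 14.4% of the others. Chromosome 11 held the most members, 441 in 122 clusters, or 10.7% of its intervals, and chromosome 16 the fewest, 27 or 1.72%.

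Members took a slightly larger share of the fragments in Nr6a1OE. In mScarlet 1, 2 and 3 the shares were 4.99%, 5.03% and 5.01%. In Nr6a1OE 1, 2 and 3 they were 5.14%, 5.12% and 5.13%. The groups did not overlap, and with 3 libraries against 3 a permutation test cannot go below 0.10, so no p is given. Without chromosomes 6 and 11 the mScarlet shares were 3.90%, 3.95% and 3.93%, against 4.00%, 4.00% and 4.01% for Nr6a1OE. Fragments in the other intervals beyond 1 kb of a gene end made up 38.1%, 38.5% and 38.4% for mScarlet, against 38.2%, 38.6% and 38.3% for Nr6a1OE, and there the groups overlapped.

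The same small shift appears in the fold changes. Of 3022 members with enough counts to be tested (30 were not), 1814 (60.0%) were higher in Nr6a1OE, with a median log2 fold change of 0.04 and quartiles of -0.07 and 0.16. Of the other intervals beyond 1 kb of a gene end, 50.9% were higher, with a median of 0.01. Outside chromosomes 6 and 11, 58.4% of members were higher, with a median of 0.03. The median was 0.00 for intervals with 0 to 3 neighbours, 0.03 with 4, 0.04 with 5, 0.04 with 6 or 7 and 0.06 with at least 8. Those with 4 neighbours, just outside the limit, numbered 3576 at a median of 6.82 CPM, and those with 5, just inside it, 1772 at 8.02 CPM. On chromosome 11 the median of members was 0.09, above the 0.06 of all its intervals, and on chromosome 6 it was -0.02.

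**Figure D1:**
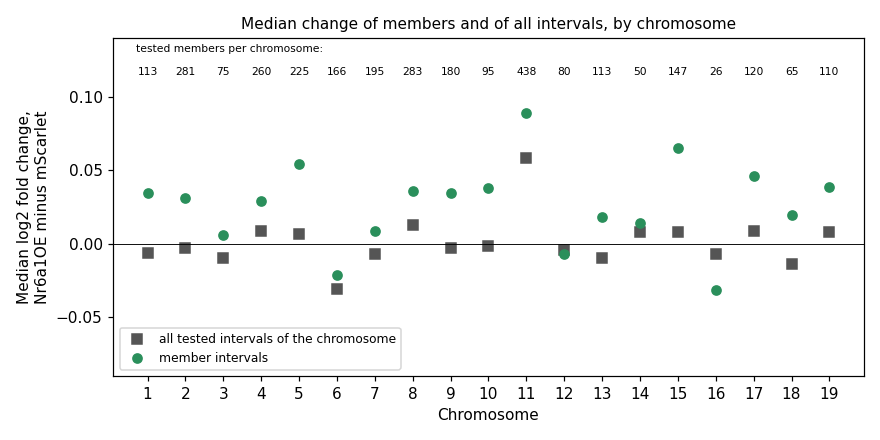
Median log2 fold change, Nr6a1OE minus mScarlet (y axis), of all tested intervals (squares) and of member intervals (circles) on chromosomes 1 to 19 (x axis), with the number of tested members above. Members on chromosome 11 stand highest at 0.09, and its intervals as a whole stand at 0.06.

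Single members were tested with edgeR's quasi-likelihood test over all 51637 testable intervals with Benjamini-Hochberg adjustment, and called opened (higher in Nr6a1OE) or closed (lower) at an adjusted p under 0.05. The test called 28 members opened, 0.927% of those tested, where 0.469% of all intervals were called opened. It called 25 members closed, 0.827%, where 1.26% of all intervals were called closed. Members had a median of 8.91 CPM and all intervals 7.19 CPM, so these shares are not like for like. On chromosome 11, which held 438 of the 3022 tested members, lay 8 of the 28 opened. With chromosome medians removed the test called 23 members opened and 25 closed. The median log2 fold change was 0.36 for the opened and -0.53 for the closed. Inside a protein-coding gene lay 13 of the 28 opened and 18 of the 25 closed, where 56.8% of all members and 59.0% of all intervals did. The calls are sensitive to the test: DESeq2 called 0 members opened and 5 closed, and 388 members had an unadjusted edgeR p under 0.05.

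Clusters were tested on their summed member counts in a table that kept every other interval. Of 895 tested, 565 were higher and 330 lower in Nr6a1OE, with a median log2 fold change of 0.03. The test called 22 of those 895 clusters opened, where 0.489% of all rows of that table were called opened, and 12 closed, where 1.31% were. A cluster row sums up to 25 members, and the other rows are single intervals. Their counts thus differ, and the shares called are not like for like. Median changes were 0.20 for the opened and -0.24 for the closed. In 30 of the 34 called clusters the groups did not overlap, which selection by the test favours. Clusters that were not called, such as HoxA and HoxD, could also have groups apart. The share of all 895 tested clusters with groups apart is not given here, so that count is no result about the called clusters. DESeq2 called 0 clusters opened and 2 closed, those at Mir9-2 and Gse1.

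**Figure D2:**
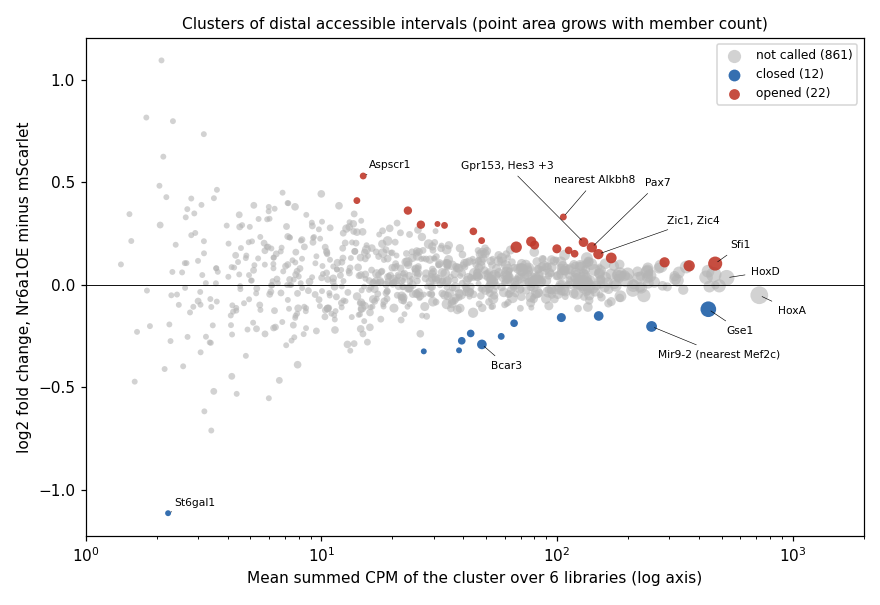
Log2 fold change of each of 895 clusters (y axis) against its mean summed CPM (x axis, log scale), with point area growing with the number of members. The 22 opened (red) and 12 closed (blue) clusters lie among many clusters with changes of like size that were not called (grey), most of them with lower counts.

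The cluster around Mir9-2 closed with the lowest adjusted p of the closed clusters. It spans chr13:83714918-83745621 with 8 members, holds C130071C03Rik and Mir9-2, and overlaps no protein-coding gene. The nearest coding gene end, 48.4 kb away, is that of Mef2c, a MADS-box transcription factor of neurons and muscle. Summed accessibility was 268, 276 and 266 CPM in mScarlet 1, 2 and 3, and 232, 234 and 237 CPM in Nr6a1OE 1, 2 and 3. The groups were well apart, and the log2 fold change was -0.20 (SE 0.03, edgeR adjusted p = 4.74e-08), with no loss of the call when any library was left out.

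Within that cluster 7 of 8 members were lower in Nr6a1OE and 3 were called closed. The member at chr13:83729469-83732986, which holds the inner C130071C03Rik promoter printed above, measured 113, 117 and 109 CPM in mScarlet and 100, 93.5 and 97.9 CPM in Nr6a1OE. Its groups did not overlap, and its change was -0.21 (SE 0.04, edgeR adjusted p = 5.95e-04). The short member at chr13:83741627-83742011 fell furthest, from 19.3, 20.1 and 23.0 CPM to 14.3, 15.1 and 13.9 CPM, a change of -0.53 (SE 0.11, adjusted p = 2.02e-04). The Mir9-2 hairpin itself lies in the member at chr13:83737761-83740074, called closed at -0.24 (adjusted p = 0.0172) although Nr6a1OE 2, at 53.8 CPM, stood above mScarlet 3, at 50.8 CPM, and the call was lost without 4 of the 6 libraries. The member that holds the outer promoter changed by 0.04 (SE 0.12, adjusted p = 0.933), so along this stretch the change was not even.

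The other genes for miR-9 gave no such call. Mir9-1 lies in a cluster of 7 members at Rhbg, an ammonium transporter, on chromosome 3, which changed by 0.09 (SE 0.05, edgeR adjusted p = 0.408). Mir9-3 lies 8.75 kb outside a cluster of 13 members at Rhcg, another ammonium transporter, and Mir9-3hg, the host transcript, on chromosome 7, and that cluster changed by 0.05 (SE 0.03, adjusted p = 0.585). Both were described after their values were seen, and the difference between the miR-9 loci was not tested.

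Gse1, which encodes a subunit of histone deacetylase and demethylase complexes, held the second closed cluster. It lies inside the gene at chr8:120275757-120375619 with 19 members. Its sums were 453, 458 and 460 CPM in mScarlet and 423, 415 and 424 CPM in Nr6a1OE, with no overlap. The change was -0.12 (SE 0.03, edgeR adjusted p = 6.59e-04), and the call held without each library in turn.

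Most of the Gse1 fall lay in 2 of its 19 members. The first, at chr8:120275757-120277341, went from 71.6, 71.1 and 70.7 CPM to 53.8, 52.1 and 51.1 CPM, a change of -0.44 (SE 0.06, edgeR adjusted p = 2.53e-11, the lowest of any member). The other, at chr8:120322565-120323882, went from 62.6, 68.0 and 67.3 CPM to 57.8, 53.4 and 54.8 CPM, a change of -0.25 (SE 0.06, adjusted p = 0.00206). Of the 19 members 9 were higher and 10 lower, with a median change of -0.01, so the cluster was not lower along its length.

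**Figure D3:**
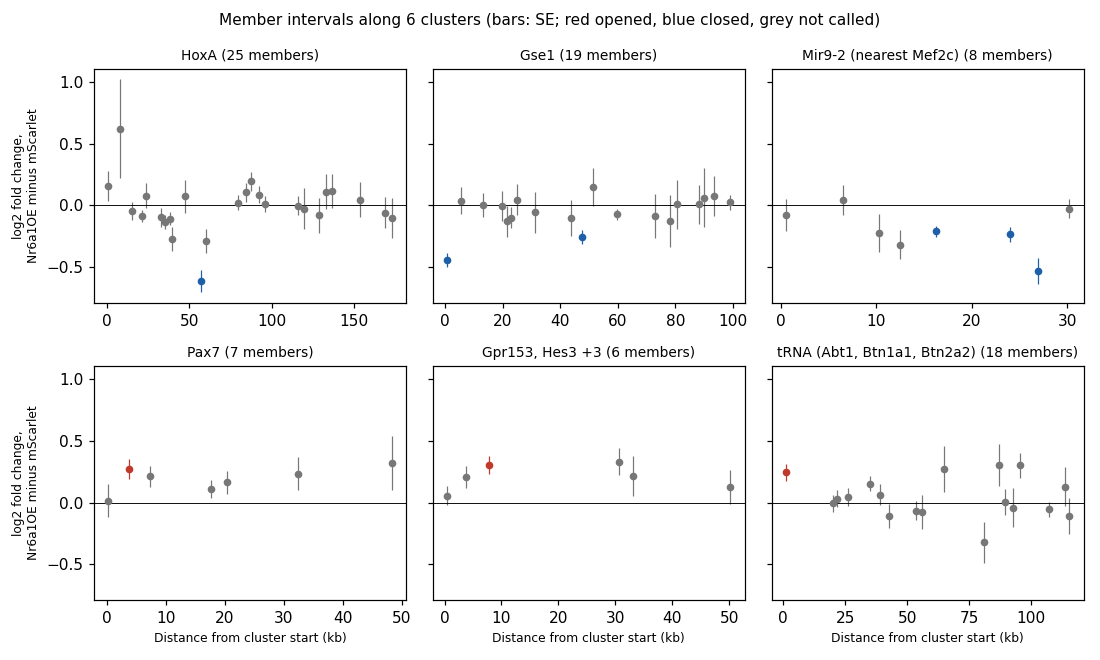
Log2 fold change with its SE (y axis) of each tested member against distance from the start of its cluster in kb (x axis), in 6 clusters. Blue members closed, red members opened and grey members were not called; in Gse1 2 of 19 members closed, in HoxA 1 of 25, and in Pax7 and the Hes3 cluster every member lies above 0 with 1 called.

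The remaining closed clusters were smaller. The cluster of 6 members inside Bcar3, an adaptor protein of cell adhesion signalling, measured 53.1, 52.5 and 52.8 CPM in mScarlet and 41.1, 45.1 and 43.4 CPM in Nr6a1OE. It changed by -0.29 (SE 0.06, edgeR adjusted p = 0.00119), a call no library decided. A single member of it at chr3:122460939-122462647 fell from 23.7, 23.2 and 26.7 CPM to 15.3, 17.1 and 14.6 CPM, a change of -0.65 (SE 0.10, adjusted p = 7.66e-08). Groups did not overlap at either.

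Plagl1, an imprinted zinc finger gene, had 2 members, with sums of 61.7, 64.1 and 63.2 CPM in mScarlet and 50.9, 54.7 and 53.2 CPM in Nr6a1OE, a change of -0.25 (SE 0.06, edgeR adjusted p = 0.00348). Its member at chr10:13107572-13109221 fell from 40.0, 44.6 and 41.6 CPM to 32.8, 33.6 and 33.4 CPM, a change of -0.33 (SE 0.07, adjusted p = 0.00104). No library of one group reached the other at Plagl1. The cluster of 6 members nearest Lrrc74a changed by -0.15 (SE 0.04, adjusted p = 0.00893). One of those 6, at chr12:86786232-86787750, stood at 44.5, 44.1 and 45.7 CPM in mScarlet and at 30.4, 30.2 and 30.7 CPM in Nr6a1OE. Its change of -0.56 (SE 0.07, adjusted p = 4.96e-11) held without any one library, while the summed cluster lost its call without Nr6a1OE 1 or 2 (highest adjusted p 0.106), and Plagl1 without Nr6a1OE 1 (0.0581).

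Among the others, single-member clusters at Tmem88b (-0.32, edgeR adjusted p = 0.00187), Palm3, a paralemmin (-0.32, adjusted p = 0.0155), and St6gal1, a sialyltransferase (-1.11, adjusted p = 0.0331), closed. The St6gal1 interval was faint, at 3.15, 2.48 and 3.50 CPM in mScarlet and 1.70, 1.70 and 0.883 CPM in Nr6a1OE. At Rai14, an actin-binding protein gene induced by retinoic acid, the change was -0.24 (adjusted p = 0.0350) with overlapping groups. Closed clusters on chromosome 6 included those at Asb4 (-0.16, adjusted p = 0.0288) and at Rnf181 and Vamp5 (-0.19, adjusted p = 0.0464). With each chromosome's median change removed those had adjusted p of 0.159 and 0.169 and were no longer called. Leaving out single libraries ended the call at Tmem88b (without Nr6a1OE 1, adjusted p = 0.0539) and at Palm3, St6gal1, Rai14, Asb4 and the Rnf181 cluster (4 to 6 of the 6 libraries each, with a highest adjusted p of 0.110 to 0.462).

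**Figure D4:**
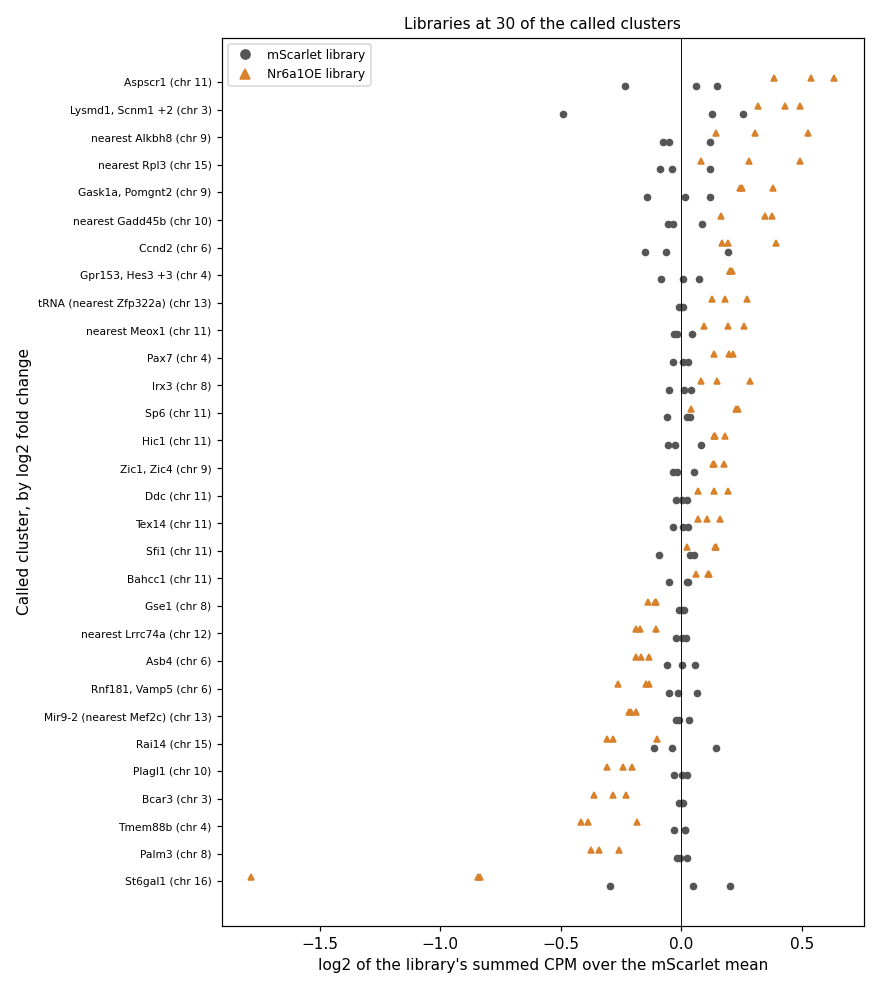
The 30 called clusters described here (y axis, ordered by log2 fold change) with the log2 of every library's summed CPM over the mScarlet mean (x axis), mScarlet libraries as circles and Nr6a1OE libraries as triangles. The triangles lie beyond all circles in 26 of the 30 clusters, which selection by the test favours. The share over all tested clusters is not given, so this count only describes the figure. The groups overlap at Sfi1, Ccnd2, Rpl3 and Rai14.

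The opened cluster on chr4:139803928-139852938 lies across Pax7, a paired homeobox gene of dorsal neural progenitors, with 7 members. Its sums were 129, 132 and 134 CPM in mScarlet and 144, 151 and 153 CPM in Nr6a1OE, without overlap. The change was 0.18 (SE 0.04, edgeR adjusted p = 7.45e-04), and all 7 members were higher, from 0.01 to 0.32. A single one of them, at chr4:139807023-139808228, was called opened on its own, at 27.8, 24.5 and 30.1 CPM against 34.0, 32.9 and 33.3 CPM (0.27, adjusted p = 0.0433), a call lost without 5 of the 6 libraries and with chromosome medians removed (adjusted p = 0.0518). The cluster's call held without each library in turn.

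At Hes3, a Notch-related repressor of neuronal differentiation, 6 members on chr4:152282838-152333370 also take in Gpr153, Icmt, Rnf207 and Rpl22. The sums were 121, 127 and 114 CPM in mScarlet and 139, 139 and 138 CPM in Nr6a1OE. The change was 0.21 (SE 0.04, edgeR adjusted p = 1.14e-04), all 6 members were higher, and no library decided the call. The member inside Hes3 at chr4:152290170-152291032 opened by 0.30 (SE 0.07, adjusted p = 0.00406), from 34.4, 35.4 and 34.3 CPM to 42.0, 41.8 and 44.3 CPM; without Nr6a1OE 3 its adjusted p was 0.0635.

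Zic1 and Zic4, neighbouring zinc finger genes of the dorsal neural tube, had 7 members with sums of 140, 147 and 139 CPM in mScarlet and 156, 156 and 161 CPM in Nr6a1OE. The change was 0.15 (SE 0.04, edgeR adjusted p = 0.0102), with 5 of 7 members higher and 0 called singly. Irx3, a homeobox gene of intermediate progenitors, had 5 members at 94.5, 96.5 and 90.6 CPM in mScarlet and 99.2, 114 and 104 CPM in Nr6a1OE, a change of 0.18 (SE 0.05, adjusted p = 0.0133). The groups did not overlap at either locus. Leaving out single libraries ended the call at Zic1 (mScarlet 1, mScarlet 3 or Nr6a1OE 3; highest adjusted p 0.108) and at Irx3 (mScarlet 3 or Nr6a1OE 2; highest 0.312). With the gene-end intervals inside the stretch added to the sum, Irx3 changed by 0.08 (adjusted p = 0.160).

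Ccnd2, a G1 cyclin gene on chromosome 6, had 3 members at 38.5, 46.0 and 36.2 CPM in mScarlet and 52.8, 46.1 and 45.3 CPM in Nr6a1OE, a change of 0.26 (SE 0.07, edgeR adjusted p = 0.0104). There the groups overlapped, since mScarlet 2 stood with Nr6a1OE 2 and 3, and the adjusted p rose to 0.0728 with the gene-end interval added. The call was lost without mScarlet 1, mScarlet 3 or Nr6a1OE 1 (highest adjusted p 0.263). The opened clusters beyond the 12 with the lowest adjusted p, other than those on chromosome 11, included those at Lysmd1, at Gask1a and Pomgnt2, and nearest Gadd45b and Rpl3, with changes of 0.29 to 0.41, and each of these was lost without 3 to 5 libraries.

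On chromosome 11 lay 9 of the 22 opened clusters, against 122 of all 901. With each chromosome's median removed, 1 of those 9 was still called, and 13 of the 22 in all. The one was at Aspscr1, which encodes a tether of glucose transporter vesicles, where 2 members summed to 12.9, 13.7 and 10.5 CPM in mScarlet and 19.2, 16.1 and 17.9 CPM in Nr6a1OE. Its change was 0.53 (SE 0.12, edgeR adjusted p = 0.00100, and 0.00496 with the medians removed), and it rested on the member at chr11:120706889-120708358, at 6.02, 7.87 and 6.12 CPM against 11.4, 11.3 and 10.7 CPM (0.74, adjusted p = 2.51e-04). The summed call was lost without mScarlet 3 (adjusted p = 0.0745).

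The 8 clusters on chromosome 11 that lost the call with the medians removed included those at or nearest Sfi1, a centriole gene (0.10, edgeR adjusted p = 0.00408, then 0.330), Sp6, a zinc finger gene (0.17, 0.0118, then 0.162), and Meox1, a mesoderm homeobox gene (0.18, 0.0473, then 0.245), with Ddc, Tex14, Bahcc1 and Hic1. Each of the 8 was also lost without 3 to 5 of the 6 libraries. Sfi1 had 15 members at 469, 464 and 424 CPM in mScarlet and 500, 498 and 460 CPM in Nr6a1OE, and the groups overlapped. Its stretch, chr11:3131338-3184051, lies near the assembled start of the chromosome. The caution on repeated sequence given below for chromosome 9 applies there too. The cluster at Hic1 holds the genes of miR-132 and miR-212, printed above, and its 3 members summed to 119, 110 and 108 CPM in mScarlet and 128, 124 and 124 CPM in Nr6a1OE (0.15, adjusted p = 0.0259, then 0.253).

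The lowest adjusted p of all clusters belonged to 2 members at chr9:3012277-3025886, near the assembled start of chromosome 9 and 310.6 kb from the nearest coding gene end, that of Alkbh8. Sums were 89.4, 102 and 90.9 CPM in mScarlet and 116, 135 and 104 CPM in Nr6a1OE, a change of 0.33 (SE 0.04, edgeR adjusted p = 1.78e-10). The groups did not overlap, but the Nr6a1OE libraries differed widely from each other, and DESeq2 gave an adjusted p of 0.623. Nearly all counts came from 1 of the 2 members, the other being too weak to test. How the alignment treated repeated sequence is not given in the sources used here, so values in repeated sequence, which assembled chromosome starts often hold, are uncertain.

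Genes for tRNAs, the adaptors of translation, lay in some of the clusters. In all, 16 clusters held 122 of the 391 tRNA genes on chromosomes 1 to 19. Their median change was 0.05, with 12 of 16 higher, 1 opened and 0 closed. Over all 895 tested clusters the median was 0.03, with 565 higher, 22 opened and 12 closed, so these few counts are given as a description. The opened one, on chr13:23298293-23317968 with 6 tRNA genes, had 5 members with sums of 74.9, 75.3 and 74.4 CPM in mScarlet and 84.9, 90.6 and 81.9 CPM in Nr6a1OE. The groups did not overlap, and the change was 0.19 (SE 0.05, edgeR adjusted p = 0.0134). All 5 members were higher and 0 were called alone, and the call was lost without mScarlet 1, mScarlet 3 or Nr6a1OE 2 (highest adjusted p 0.185).

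The largest tRNA cluster, on chr13:23411150-23526774, took in 32 tRNA genes with Abt1, Btn1a1 and Btn2a2, and had 18 members. It measured 454, 459 and 452 CPM in mScarlet and 471, 484 and 458 CPM in Nr6a1OE, a change of 0.05 (SE 0.02, edgeR adjusted p = 0.376). The groups overlapped. Its first member, at chr13:23411150-23413330, opened by 0.24 (SE 0.07, adjusted p = 0.0178), from 42.2, 44.1 and 42.3 CPM to 49.9, 52.4 and 50.1 CPM, a call lost without 4 of the 6 libraries. Over the 57 members that overlap a tRNA gene, 38 were higher, 2 were called opened and 0 closed, with a median of 0.07. Of all tested members 60.0% were higher and 0.927% opened, with a median of 0.04. Members with near-identical tRNA copies may share reads.

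None of the 4 Hox clusters was called on the sum of its members, which leaves out the intervals at gene ends. HoxA, the largest cluster of all, held 25 members over 173.2 kb and measured 743, 735 and 726 CPM in mScarlet and 720, 689 and 720 CPM in Nr6a1OE, a change of -0.05 (SE 0.02, edgeR adjusted p = 0.277). HoxD with Evx2 held 19 members and measured 518, 518 and 520 CPM against 528, 529 and 537 CPM, a change of 0.03 (SE 0.02, adjusted p = 0.583). In both the groups were close but did not overlap. HoxA lies on chromosome 6, and with chromosome medians removed its change was -0.01 (edgeR adjusted p = 0.860). With gene-end intervals added to the sum it was -0.01 (adjusted p = 0.858). HoxD changed by 0.04 under each of these alternatives (adjusted p = 0.486 and 0.498).

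HoxC held 13 members at 266, 278 and 259 CPM in mScarlet and 284, 284 and 286 CPM in Nr6a1OE, a change of 0.09 (SE 0.03, edgeR adjusted p = 0.0832). With its 6 gene-end intervals added the change was 0.11 (adjusted p = 0.00135), and with members alone but without mScarlet 2 it was 0.12 (adjusted p = 0.0180). HoxB on chromosome 11 held 12 members at 441, 425 and 416 CPM against 443, 454 and 446 CPM, a change of 0.07 (SE 0.03, adjusted p = 0.175). With its 5 gene-end intervals added HoxB changed by 0.09 (adjusted p = 0.00664), and with members alone and chromosome medians removed by 0.02 (adjusted p = 0.857). The calls at HoxB and HoxC thus differed with which intervals were summed, and the sum with gene ends was not run with chromosome medians removed.

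Within HoxA 1 member stood apart. The interval inside Hoxa3 at chr6:52194451-52195128 measured 30.4, 30.3 and 27.5 CPM in mScarlet and 21.4, 18.2 and 17.9 CPM in Nr6a1OE. The groups did not overlap, and it closed by -0.61 (SE 0.09, edgeR adjusted p = 1.97e-08), also in DESeq2 and without each library in turn. Its neighbour 2.7 kb on, also inside Hoxa3, changed by -0.29 (SE 0.09, adjusted p = 0.0904). Of the 25 members 12 were higher and 13 lower, from -0.61 to 0.62, and the other 24 were not called.

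The remaining large clusters showed no call. Prtg, an immunoglobulin superfamily receptor gene, held 17 members and changed by 0.02 (SE 0.03, edgeR adjusted p = 0.835). Septin9, a cytoskeletal GTPase gene, held 15 members and changed by 0.05 (SE 0.03, adjusted p = 0.571). The 14 members across the noncoding RNA 9330198N18Rik, nearest Cstad, changed by 0.04 (SE 0.03, adjusted p = 0.584), and the 13 at Igdcc3 and Igdcc4, relatives of Prtg, by -0.00 (SE 0.02, adjusted p = 0.966). Single members opened in the first and the third: at chr9:72790911-72792397 near Prtg from 4.93, 5.97 and 6.0 CPM to 8.52, 10.2 and 8.07 CPM (0.66, adjusted p = 0.00907), and at chr2:30707249-30709007 from 31.6, 34.1 and 32.3 CPM to 41.8, 41.1 and 40.2 CPM (0.33, adjusted p = 0.00167). The groups did not overlap at either. The second of these calls held without any one library, and the first was lost without mScarlet 1 or Nr6a1OE 2.

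Called members also lay in clusters that did not change in sum. Inside Nes, the gene of the progenitor filament protein nestin, the interval at chr3:87973781-87974814 closed from 57.6, 54.9 and 49.0 CPM to 37.5, 37.6 and 42.4 CPM. Its change was -0.45 (SE 0.07, edgeR adjusted p = 9.35e-09), without overlap and without loss when any library was left out, while its cluster of 6 members changed by -0.01 (SE 0.03, adjusted p = 0.929). Inside Ksr1, a scaffold of the MAP kinase pathway, a faint interval at chr11:79041797-79042557 opened from 2.60, 2.04 and 2.50 CPM to 3.98, 5.37 and 4.67 CPM (0.96, adjusted p = 0.0105). Its groups did not overlap, and the call was lost without mScarlet 2 or Nr6a1OE 2.

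Other members among those with the lowest adjusted p had Gadd45b or Zfp184 as the gene with the nearest end. Near Gadd45b, a stress-induced growth arrest gene, the interval at chr10:80939017-80940431 opened from 18.1, 20.1 and 21.9 CPM to 28.6, 25.6 and 24.2 CPM (0.38, edgeR adjusted p = 0.00767). In a cluster with 16 tRNA genes, the interval at chr13:21924763-21925395 opened from 3.42, 2.77 and 3.12 CPM to 5.97, 5.79 and 5.05 CPM (0.84, adjusted p = 0.0131). That interval overlaps a tRNA gene, and the Zfp184 end lies 20.0 kb from it. In both cases the groups were apart, and the calls were lost without 2 and 4 of the 6 libraries.

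Inside Rai14 the interval at chr15:10623319-10624375 closed from 29.0, 26.8 and 32.8 CPM to 19.6, 24.3 and 23.0 CPM (-0.41, edgeR adjusted p = 6.50e-04). Inside Tex14, a germ cell gene on chromosome 11, the interval at chr11:87448102-87449976 opened from 62.7, 64.8 and 61.4 CPM to 71.5, 76.1 and 72.3 CPM (0.22, adjusted p = 0.00808, and 0.0913 with chromosome medians removed). At Rnf225 the interval at chr7:12927563-12929447 opened from 13, 10.5 and 13.4 CPM to 15.3, 17.1 and 18.3 CPM (0.46, adjusted p = 0.0109). None of the 3 had overlapping groups, and each call was lost without 2 of the 6 libraries.

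In all, the 53 called members lay in 49 clusters, and 0 clusters held members called in both directions. Of the 34 called clusters, 9 had no member called on its own. Of 231 clusters with at least 5 tested members, 17 had all members higher and 4 had all lower. Of all tested members 60.0% were higher. The count expected if members changed independently was not computed, so these counts do not show whether members of a cluster moved together. Besides Pax7, the Hes3 cluster, Meox1 and the tRNA cluster nearest Zfp322a, the 17 include clusters at Gata3, Uncx, Skor1 and Dlx3, homeobox, zinc finger or corepressor genes, with changes of 0.10, 0.10, 0.10 and 0.17 that were not called. Those at Gata3, Uncx, Skor1 and Dlx3 were picked after their values were seen. The rest of the 17 and the 4 with all members lower are not named, so no gene type is read from them.

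By gene list, dorsoventral patterning genes stood at 8 clusters (8 of 21 genes), of which 2 opened (Pax7 and Irx3) and 0 closed, with a median change of 0.09. Of their 29 tested members 2 opened and 0 closed. Over all tested, 22 of 895 clusters opened and 12 closed, and 28 of 3022 members opened and 25 closed, so these counts of 1 or 2 are given as a description. Neural progenitor genes stood at 9 clusters (10 of 19 genes), of which 1 opened (Zic1) and 0 closed, and of 43 members 0 opened and 2 closed, inside Nes and Notch1. Hox genes and cofactors stood at 11 clusters (40 of 50 genes) with 0 called and 1 of 96 members closed. The medians of both these lists, 0.04 and 0.05, lie near the 0.03 over all clusters.

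Late temporal and gliogenic genes stood at 4 clusters (3 of 16 genes), early temporal genes at 4 (4 of 13), proneural and neuronal genes at 11 (10 of 32), signalling genes at 11 (11 of 45) and pluripotency genes at 1 (1 of 18), with 0 clusters called. Their largest clusters were those of Nfic and Celf5 (-0.00, edgeR adjusted p = 0.981), Zfhx3 (0.01, 0.949), Ebf3 (-0.06, 0.535), Ski (0.15, 0.0545) and Tbx3 (0.16, 0.230). At Ski, a corepressor of TGF-beta signalling, 1 member opened (0.23, adjusted p = 0.0210) with overlapping groups, and its cluster was called opened without mScarlet 2 (adjusted p = 0.0109) or Nr6a1OE 2 (0.0215). At Nfic, a nuclear factor of late progenitors, 1 member closed (-0.33, adjusted p = 0.0435). Markers of other cell types stood at 8 clusters (8 of 26 genes), of which 1 opened (nearest Meox1) and 0 closed. The largest of those, at Snai1 and Rnf114, changed by 0.07 (adjusted p = 0.609).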

How the data were processed

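The authors deposited raw counts of fragments in consensus intervals for all 6 libraries. Counting used featureCounts 2.0.1 on read pairs, per the file headers, with a fragment counted in every interval it overlapped by at least 0.2 of its length. The submitters' processing notes name mm10, and the aligner, the peak caller and the handling of duplicates, repeats and the Tn5 offset were not given in the sources used here.

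Gene ends, tRNA, long noncoding RNA and microRNA positions came from RefSeq GRCm38.p6 (21887 protein-coding genes on the chromosomes used), without exons. Intervals were filtered with filterByExpr, scaled with TMM and tested in R 4.3.3 with edgeR 4.0.16 (functions glmQLFit, then glmQLFTest), with no covariate and with Benjamini-Hochberg adjustment over all intervals tested. Clusters were tested the same way on summed counts, with library sizes and factors of the full table. Each standard error is the fold change divided by the root of its F statistic. The script was tested on simulated data. The members and the 9 gene lists were chosen with earlier results of these data known. Values were named by rule: the 10 largest clusters, up to 12 called per direction, the called and the largest cluster of each gene list, and the 10 members per direction with the lowest adjusted p whose groups did not overlap. The HoxB, Mir9-1 and Mir9-3hg clusters, those at Gata3, Uncx, Skor1 and Dlx3, the further called clusters and the further called members were named after their values were seen. Some values that the rule names are not reported here.

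Separate cultures are not named in the labels, and the p-values therefore reflect the spread among these libraries alone, which may be technical. Where intervals averaged 10 fragments or more, libraries of the same group always differed beyond counting noise (the chi-square statistic over its degrees of freedom was 1.05 to 1.10), and each library was kept. Where they averaged 100 or more, Nr6a1OE 1 and 3 gave 0.999, no more than counting noise, and summing that pair was an alternative, beside DESeq2 1.42.0, other scalings, filters, a replicate block, left-out libraries, a minimum variation between libraries and other member rules.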

Additional observations from a re-analysis of the deposited data

How the results depend on the processing

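Counts of calls depended on how the spread between libraries was modelled. For opened members, opened clusters, closed members and closed clusters (28, 22, 25 and 12), DESeq2 gave 0, 0, 5 and 2, and a coefficient of variation between libraries of at least 10% gave 1, 0, 5 and 0. Leaving out each library in turn gave 10 to 25, 8 to 22, 16 to 21 and 5 to 9. Of the original calls, 3, 3, 11 and 3 were kept whichever library was left out. Asking for at least 8 neighbours (199 members) gave 2, 1, 1 and 0, and neighbours within 10 kb (40 members) gave 0, 1, 0 and 0. Removing chromosome medians left 14 opened clusters, and members over 3 kb from gene ends (2500) left 12. The other counts stayed within 1.5 times, including those with DESeq2 size factors in edgeR, loess offsets, no filter and Nr6a1OE 1 and 3 summed. The replicate block gave 27 opened and 23 closed members and 19 opened and 12 closed clusters; same-numbered libraries did not deviate together (correlations 0.032, -0.025 and -0.030), and of the 62 named values it ended the call nearest Meox1 (adjusted p = 0.0505). Of 910 named values under an alternative, 718 kept their direction and side of the threshold, 173 lost the call, 7 gained it and 12 changed sign, all of these near 0. At Igdcc3 and Igdcc4 the changes were 0.00117 with loess offsets, 0.00459 with chromosome medians removed and 0.00714 with gene-end intervals added, and -0.0157 to 0.00518 with a library left out (above 0 without mScarlet 3 and without Nr6a1OE 3). At Nfic they were 0.00718, 0.00279 and 0.00623, and -0.0197 to 0.0298 with a library left out (above 0 without mScarlet 3 and without Nr6a1OE 2). At Zfhx3 the change was -0.00105 with chromosome medians removed and -0.0289 to 0.0444 with a library left out (below 0 without mScarlet 3). The cause was not tested. Depth limits the precision of single members, which had a median of 8.91 CPM, and 30 were too low to be tested.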
